A study of Mus musculus with 19 samples.

Results

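The genes described here encode proteins of the cornified envelope of squamous epithelium. They are 5 genes of the S100 fused-type family (Flg, Flg2, Hrnr, Rptn and Tchh), 3 genes for other differentiation proteins (Lor, Ivl and Krtdap) and 2 transglutaminase genes (Tgm1 and Tgm3). They were taken by name, as 10 of the 24689 genes in a bulk RNAseq table of microdissected mouse tongue epithelia. The table holds 19 mice, and epithelia were collected 15 days after transgene induction with intralingual tamoxifen and doxycycline chow. Mice were 8 to 16 weeks old.

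The study crossed a tamoxifen-activated Cre, Krt14-CreERT, with LSL-rtTA, so that doxycycline drives tetON transgenes only where Cre has removed a stop cassette in cells with an active Krt14 promoter. Group E (n = 5) was Krt14-CreERT/LSL-rtTA/tetON_E6-E7 and expressed the E6 and E7 oncoproteins of human papillomavirus. Group Y (n = 3) was Krt14-CreERT/LSL-rtTA/tetON_YAP1S127A and expressed a YAP1 mutant that escapes Hippo pathway inhibition. Group EY (n = 6) carried Krt14-CreERT/LSL-rtTA with both tetON_E6-E7 and tetON_YAP1S127A. The control group N (n = 5) was mixed: N mice 1 to 3 were Krt14-CreERT/LSL-rtTA, N mouse 4 had LSL-rtTA without Cre, and N mouse 5 had Krt14-CreERT/tetON_E6-E7/tetON_YAP1S127A without rtTA. The Krt14 promoter is active in basal cells, whereas the measured tissue held all layers of the epithelium. In such bulk samples, fewer cells of a layer and less RNA per cell cannot be told apart.

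The cornified envelope is a sheet of cross-linked protein that replaces the plasma membrane of keratinocytes as they leave the living layers. Involucrin is laid down early as a scaffold, loricrin and repeat-rich proteins such as filaggrin, hornerin, repetin and trichohyalin are added later, and transglutaminases join them through isopeptide bonds. On the dorsal tongue this program is strongest in the filiform papillae, and oral epithelium otherwise keratinizes less than skin.

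All epithelia carried abundant RNA of the labelled tissue. Krt5 ranged from 2055 to 7455 TPM, Krt14 from 4658 to 24658, Krt4 from 7519 to 36778 and Krt13 from 18471 to 88788 over the 19 mice. TPM are transcripts per 1000000, scaled to gene length and to the same total in each mouse. Read depth, recovered from the steps between values, was 8269674 to 11007304 reads per mouse. The oral keratin Krt76 was far lower in both groups with YAP1S127A, at 29.9 to 203 TPM in EY and 292 to 1125 in Y, against 2582 to 5338 in N. RNA of the transgenes was not analysed here, and the mouse Yap1 gene ranged from 6.62 to 10.7 TPM.

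The promoters of these genes share short sequences, and 6 are printed because they hold the contrast that the RNA values later show: Flg, Rptn, Lor and Ivl fell in EY, Krtdap stayed short of the limit on size, and Hrnr fell most. Each run is the 120 bases before the annotated start on the sense strand, from RefSeq on GRCm38.p6, which is not the build of the expression data (GRCm39). Capitals mark matches to TGANTCA, a palindrome that includes the letters bound by Fos and Jun dimers.
Flg, chr3:93273426-93273545, plus strand: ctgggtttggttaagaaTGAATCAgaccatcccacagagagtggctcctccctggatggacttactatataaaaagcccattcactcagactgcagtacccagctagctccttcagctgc
Hrnr, chr3:93319629-93319748, plus strand: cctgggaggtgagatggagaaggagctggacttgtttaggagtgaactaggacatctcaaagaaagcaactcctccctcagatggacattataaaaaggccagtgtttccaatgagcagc
Rptn, chr3:93393579-93393698, plus strand: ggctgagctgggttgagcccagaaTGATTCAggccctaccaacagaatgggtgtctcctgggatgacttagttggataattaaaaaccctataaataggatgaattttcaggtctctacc
Lor, chr3:92083143-92083262, minus strand: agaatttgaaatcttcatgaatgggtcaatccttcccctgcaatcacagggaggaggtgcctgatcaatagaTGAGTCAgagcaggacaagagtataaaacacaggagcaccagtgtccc
Ivl, chr3:92573736-92573855, minus strand: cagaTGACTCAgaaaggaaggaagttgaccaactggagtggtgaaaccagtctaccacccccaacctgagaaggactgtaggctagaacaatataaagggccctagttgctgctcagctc
Krtdap, chr7:30787785-30787904, plus strand: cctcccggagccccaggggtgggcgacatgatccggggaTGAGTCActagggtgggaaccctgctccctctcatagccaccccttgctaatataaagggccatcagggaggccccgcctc

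All 10 genes had a RefSeq promoter, and Tgm1 had 2. Within 250 bases before the start, on both strands, TGANTCA occurred in 6 genes (Flg, Flg2, Rptn, Lor, Ivl and Krtdap), and in 6.75% of 32851 promoters of the same length. The stricter TGAGTCA, which lies inside that motif, occurred in Lor, Ivl and Krtdap and in 4.46% of promoters. TATAAA occurred in 7 of the 10 genes and in 12.4% of promoters. GGAATG, the letters bound by TEAD partners of YAP, occurred in Tgm3 alone of the 10 genes and in 12.6% of promoters. Krtdap, which stayed short of the limit on size in EY, carries TGAGTCA as Lor does, which passed it. Hrnr, which fell most, had no match to TGANTCA. Tchh and Tgm3, which also fell, and Tgm1, which did not, had none either. The part of these letters in the RNA differences was not tested.

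The genes lie in a few places. Flg, Flg2, Hrnr, Rptn, Tchh, Lor and Ivl are on chromosome 3 in the epidermal differentiation complex, Krtdap is on chromosome 7, Tgm1 on chromosome 14 and Tgm3 on chromosome 2. The long repeats of Flg, Flg2 and Hrnr resemble each other, so reads within them may be assigned uncertainly.

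Levels between genes are compared per exon length, because the deposited TPM scale with the whole genomic span of a gene. On that scale the control epithelium was led by Rptn at 7888 ± 910 exon-length TPM (SD, n = 5; the same n for the other control values), Krtdap at 7362 ± 1478 and Lor at 4212 ± 1433. Tgm3 followed at 1209 ± 182, Tchh at 597 ± 162, Tgm1 at 289.9 ± 43.4 and Hrnr at 169.9 ± 70.2. Ivl at 15.6 ± 6.86 and Flg at 9.16 ± 3.55 were the lowest of the genes detected. The means of Rptn and Krtdap lay within each other's SD. By the reads assigned, tongue epithelium of these mice thus held far more repetin than filaggrin RNA. The level of Flg is subject to the uncertain assignment of reads in its repeats.

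In EY the order changed. Krtdap led at 4717 ± 889.7 exon-length TPM (SD, n = 6; the same n for the other EY values), followed by Rptn at 637 ± 340.1, Lor at 338 ± 208 and Tgm1 at 309 ± 53.0. Tgm3 was at 194 ± 99.6, Tchh at 82.4 ± 48.0, Hrnr at 4.03 ± 2.51, Ivl at 2.74 ± 1.32 and Flg at 0.972 ± 0.437. The 10 genes together made up 2.18% ± 0.217 of all exon-length TPM in N (SD, n = 5). The share was 2.11% ± 0.323 in E (n = 5), 1.37% ± 0.203 for the 3 Y mice and 0.628% ± 0.137 for the 6 EY mice. Krtdap alone supplied 33.7% ± 4.05 of that sum in N and 75.5% ± 4.20 in EY.

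**Figure D1:**
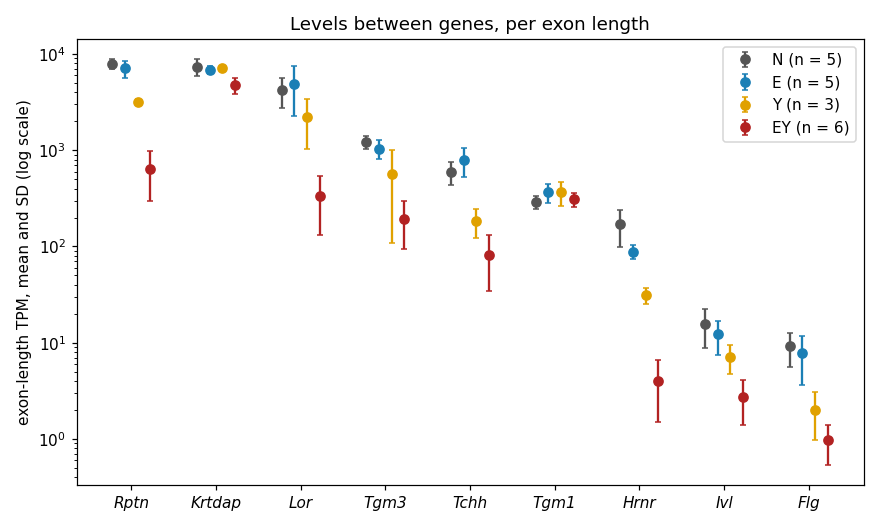
Mean exon-length TPM of 9 genes (log axis) in N, E, Y and EY, with bars for the SD over mice. Krtdap and Tgm1 differ least between groups, while Hrnr falls from 169.9 in N to 4.03 in EY.

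The comparisons below use deposited TPM and limma on log2(TPM + 0.1), fitted over the 22745 genes that reached 0.1 TPM in 3 or more mice. A gene was counted as changed at a Benjamini-Hochberg adjusted p below 0.01 with a log2 difference beyond 1 in size. Of the 10 genes, 9 passed the filter. Flg2, a filaggrin paralog, had 0 to 3 reads in each mouse and at most 0.0819 TPM, so no group could be told from another at this depth.

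In EY against N, 7 of the 9 genes fell (Flg, Hrnr, Rptn, Tchh, Lor, Ivl and Tgm3) and none rose. Among all genes tested, 5.71% were counted lower in that comparison. For each of the 7 genes the highest EY mouse was under the lowest N mouse, a separation seen in 6.49% of all genes. In Y against N, 3 genes fell (Flg, Hrnr and Tchh), against 1.11% of all genes counted lower. Every Y mouse lay below every N mouse for 4 genes, these 3 and Rptn, against 5.59% of all genes. In E against N, 0 of the 9 genes changed by limma, against 1.2% of all genes counted in either direction and 0.044% counted lower. An unadjusted p below 0.05 was reached by 0 of them and by 14.8% of all genes, and voom on the recovered reads called 0 of them and 0.0528% of all genes lower. Over the 9 genes the median log2 difference was -2.95 for EY, -1.25 for Y and -0.15 for E, beside medians over all genes tested of 0.33, 0.13 and 0.07. The 3 comparisons share the N mice.

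**Figure D2:**
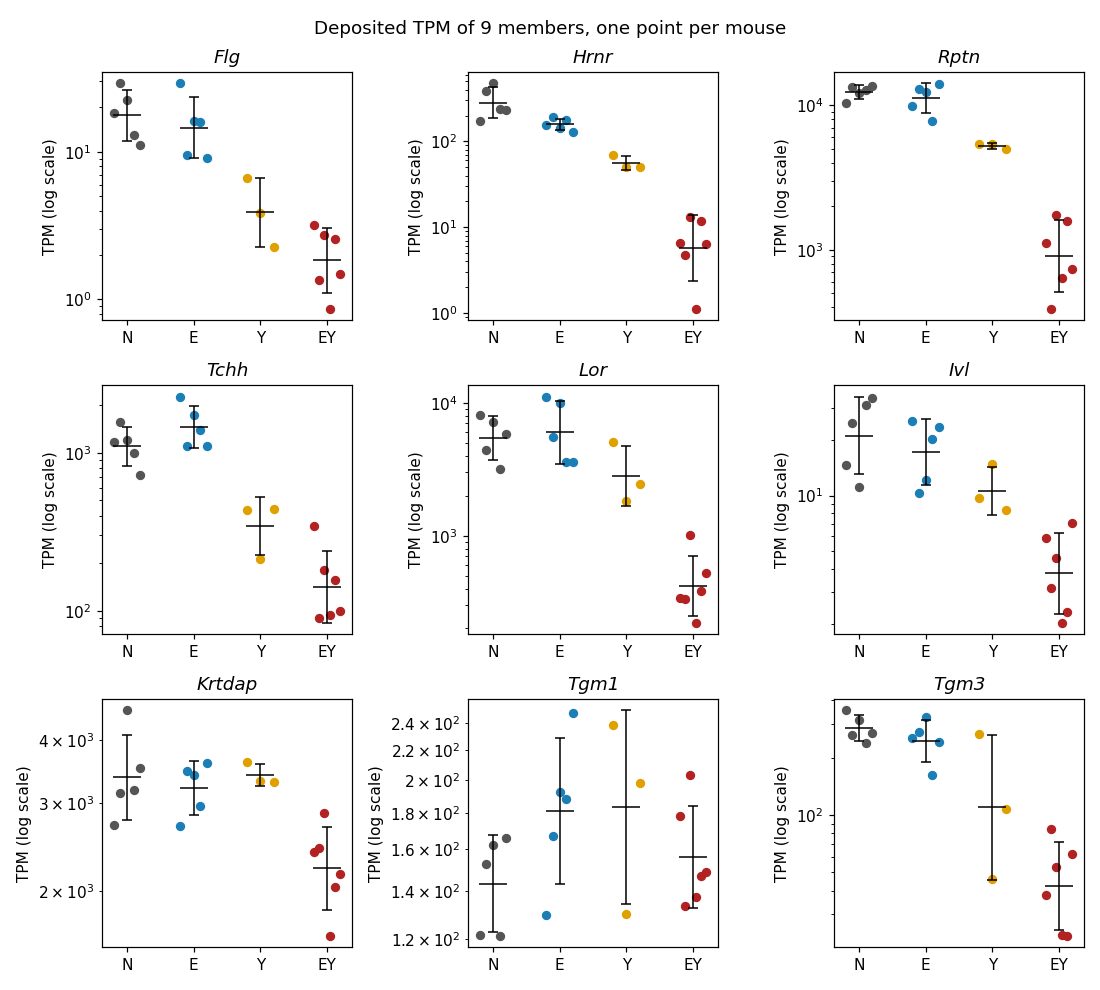
Deposited TPM (log axis) of 9 genes in each mouse of groups N, E, Y and EY, with a bar for the mean and SD on the log2 scale. In 7 panels all 6 EY mice lie below all 5 N mice, and Krtdap and Tgm1 overlap.

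Filaggrin is the precursor-derived protein that bundles keratin filaments in the granular layer. Flg was at 18.2, 29.1, 22.5, 12.98 and 11.1 TPM in N mice 1 to 5, and at 29.2, 9.54, 16.2, 15.9 and 9.05 TPM in E mice 1 to 5. It was at 6.69, 3.87 and 2.27 TPM in Y mice 1 to 3, and at a lowest of 0.86, a median of 2.04 and a highest of 3.21 TPM in the 6 EY mice. N and E overlapped, Y lay below both, and the EY range overlapped that of Y. Flg was 9.08-fold lower in EY than in N (95% interval 5.17 to 15.95; adjusted p = 3.5e-06) and 4.45-fold lower in Y (2.25 to 8.78; adjusted p = 0.0041). Its log2 difference between EY and Y was -1.03 (SE 0.45, adjusted p = 0.17).

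Hornerin, a filaggrin-like repeat protein, had the widest span among the 9 genes as a ratio of highest to lowest mouse. Hrnr was at 175, 392, 477, 236 and 231 TPM in N mice 1 to 5 and at 156, 193, 143, 175 and 130.4 TPM in E mice 1 to 5. It was at 70.1, 50.0 and 50.8 TPM in Y mice 1 to 3. In EY the lowest mouse had 1.11 TPM, the median was 6.45 and the highest mouse had 13.1. The Y and EY groups separated from N, from E and from each other, and every EY mouse lay below every Y mouse. Hrnr was 48.2-fold lower in EY than in N (24.8 to 93.7; adjusted p = 3.9e-08) and 5.01-fold lower in Y (2.24 to 11.2; adjusted p = 0.0075). In E against N its log2 difference was -0.84 (SE 0.48, adjusted p = 0.46).

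Repetin is a fused-type S100 protein of the envelope and the most abundant of the 10 transcripts per length in N. Rptn was at 10340.2, 13486, 12212, 12747 and 13680.2 TPM in N mice 1 to 5 and at 9859, 12907, 12446, 7814 and 14157 TPM in E mice 1 to 5. The Y mice were close together at 5414, 5366 and 4957 TPM, and the EY mice ran from 388 through a median of 924 to 1741 TPM. The groups fell into 3 steps with no overlap, N with E, then Y, then EY. Rptn was 13.7-fold lower in EY than in N (8.73 to 21.5; adjusted p = 4.1e-08). In Y it was 2.37-fold lower (1.38 to 4.09), with an adjusted p of 0.029 that missed the threshold in limma.

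Trichohyalin ties keratin filaments to each other and to the envelope, in hair root sheath and in filiform papillae. Tchh was at 1171, 1565, 1205, 1002 and 721 TPM in N mice 1 to 5 and at 2267, 1101, 1741, 1389.9 and 1109 TPM in E mice 1 to 5. It was at 437, 212 and 440.3 TPM in Y mice 1 to 3 and at a lowest of 89.5, a median of 128 and a highest of 344 TPM in EY. Y and EY lay below N and E, and overlapped each other. Tchh was 7.73-fold lower in EY than in N (4.74 to 12.6; adjusted p = 1.6e-06) and 3.19-fold lower in Y (1.77 to 5.74; adjusted p = 0.0084). It was the single gene of the 9 to fall in Y against E, by 2.09 on the log2 scale (SE 0.40, adjusted p = 0.0032), where 0.805% of all genes were counted lower, and that call was lost without Y mouse 2, without Y mouse 3 and with the Y and E mice fitted alone (adjusted p = 0.017).

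Loricrin is the bulk glycine-rich protein of the mature envelope. Lor was at 8136, 4403, 7173, 3158 and 5879 TPM in N mice 1 to 5 and at 11138, 5535, 9917, 3581 and 3579 TPM in E mice 1 to 5. It was at 5045, 1837 and 2457 TPM in Y mice 1 to 3 and at a lowest of 221, a median of 360.5 and a highest of 1015 TPM in EY. The Y mice reached into the range of N, whereas all EY mice lay below every other mouse. Lor was 13.1-fold lower in EY than in N (7.18 to 23.9; adjusted p = 1.3e-06). In Y its log2 difference from N was -0.94 (SE 0.50, adjusted p = 0.23).

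Involucrin, the early scaffold, was a low transcript here. Ivl was at 14.7, 24.8, 11.1, 31.1 and 33.9 TPM in N mice 1 to 5 and at 25.3, 10.3, 12.1, 20.3 and 23.7 TPM in E mice 1 to 5. It was at 9.67, 14.8 and 8.30 TPM in Y mice 1 to 3 and at 2.04, 3.87 and 7.10 TPM as the lowest, median and highest of EY. The EY mice, with 9 to 34 reads each, lay below all others, and Y overlapped N. Ivl was 5.48-fold lower in EY than in N (3.19 to 9.42; adjusted p = 3.7e-05). In Y its log2 difference from N was -0.99 (SE 0.45, adjusted p = 0.15).

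Krtdap encodes a small secreted protein of differentiating keratinocytes, and its level moved least among the envelope and differentiation genes. It was at 2711, 3139, 4597, 3189 and 3521 TPM in N mice 1 to 5, at 2698, 3477, 3415, 2961 and 3603 TPM in E mice 1 to 5, and at 3616, 3318 and 3307 TPM in Y mice 1 to 3. The EY mice ran from 1622 through a median of 2273 to 2864 TPM. EY overlapped N by its highest mouse and lay wholly below Y. The EY to N log2 difference was -0.61 (SE 0.15, adjusted p = 0.0039), short of the limit on size, and that of Y to N was 0.01 (95% interval -0.38 to 0.41). The second value is near 0 and takes a minus sign under several settings, among them median-of-ratios scaling (-0.18).

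The transglutaminases differed from each other. Tgm1, the membrane-anchored enzyme of keratinocytes, was at 121, 153, 162, 121 and 166 TPM in N mice 1 to 5 and at 129.6, 167, 193, 188 and 248 TPM in E mice 1 to 5. It was at 239, 129.9 and 198 TPM in Y mice 1 to 3, and at 133, 148 and 203 TPM as the lowest, median and highest of EY. All 4 groups overlapped. The EY to N log2 difference was 0.12 (95% interval -0.25 to 0.49, adjusted p = 0.62). Under median-of-ratios scaling it was -0.25 (95% interval -0.61 to 0.10).

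Tgm3, a cytosolic enzyme that is activated by proteolysis, was at 356, 263, 317, 238 and 271 TPM in N mice 1 to 5 and at 254, 272, 326, 161 and 242 TPM in E mice 1 to 5. The Y mice were spread widely at 267, 46.2 and 107 TPM, and EY had a lowest of 23.0, a median of 45.6 and a highest of 84.8 TPM. Y mouse 1 lay within N, and Y mouse 2 lay within EY. Tgm3 was 6.75-fold lower in EY than in N (3.82 to 11.9; adjusted p = 1.8e-05). In Y its log2 difference from N was -1.38 (SE 0.47, adjusted p = 0.053), and it depended on single Y mice: it was -2.02 without Y mouse 1 (adjusted p = 0.0067) and -0.76 without Y mouse 2 (adjusted p = 0.31). On exon-length TPM the ratio of Tgm3 to Tgm1 ran from 3.42 to 6.13 in N and from 1.79 to 4.10 in E. In the Y mice it ran from 0.744 to 2.34, below N but overlapping E. In the EY mice it ran from 0.328 to 1.33, below both N and E.

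**Figure D3:**
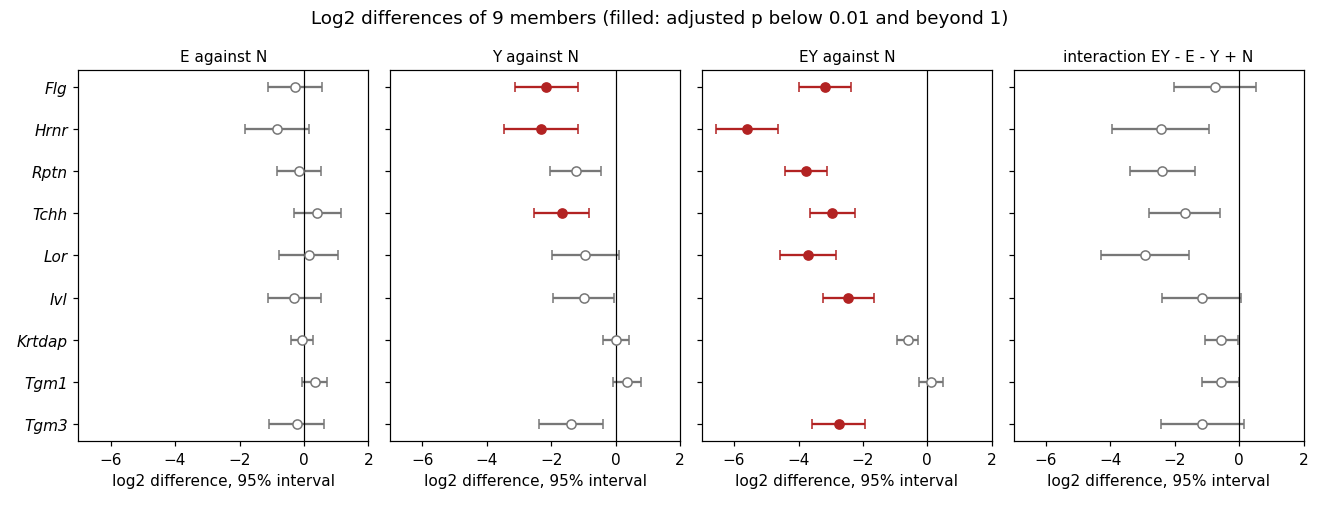
Log2 differences of 9 genes with 95% intervals in E, Y and EY against N, and the interaction EY - E - Y + N. Filled points pass the threshold, which none does in E or in the interaction, 3 do in Y and 7 do in EY.

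The added effect of each transgene was read from the comparisons between transgenic groups. In EY against Y, which adds E6-E7, 3 genes fell, against 0.928% of all genes counted lower. Their log2 differences were -3.27 for Hrnr (SE 0.53, adjusted p = 0.0012), -2.77 for Lor (SE 0.48, adjusted p = 0.0019) and -2.53 for Rptn (SE 0.36, adjusted p = 5.2e-04), each by limma. Every EY mouse lay below every Y mouse for 5 genes, these 3 with Ivl and Krtdap, against 3.37% of all genes. With the Y and EY mice fitted alone the log2 differences were the same and 0 of the 3 passed (adjusted p = 0.029, 0.016 and 0.018). Without Y mouse 1 Rptn alone passed, with Hrnr at -3.11 and Lor at -2.36. In EY against E, which adds YAP1S127A, the same 7 genes fell as in EY against N, against 4.99% of all genes counted lower. The largest of these differences were in Hrnr, 27.0-fold lower, Lor, 14.5-fold lower, and Rptn, 12.3-fold lower.

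The interaction EY - E - Y + N asks whether the difference in EY departs from the sum of those in E and Y. By limma 0 of the 9 genes passed, against 0.176% of all genes counted in either direction and 0.167% counted lower. An unadjusted p below 0.05 was reached by 5 of them and by 13.5% of all genes. Voom on the recovered reads called 2 lower, Lor and Rptn, and 0.506% of all genes, and at an adjusted p below 0.05 limma gave the same 2 genes and 0.536% of all genes. All 9 log2 values were below 0. Those of Lor at -2.91 (SE 0.64, adjusted p = 0.043) and Rptn at -2.38 (SE 0.48, adjusted p = 0.028) had the smallest adjusted p. Over the 19 fits without 1 mouse, the adjusted p of Rptn ran from 0.0081 (without EY mouse 3) to 0.081 (without Y mouse 1) and that of Lor from 0.013 to 0.15 (without Y mouse 1). It was not below 0.05 in 6 of these fits for Rptn, those without each Y mouse among them, and in 14 for Lor. Hrnr followed at -2.43 (SE 0.71, unadjusted p = 0.0033, adjusted p = 0.13).

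The calls in Y rest on 3 mice and are less firm than those in EY. In EY against N and in EY against E all 7 calls were kept in each of 19 fits that left out 1 mouse. In Y against N the number of calls was 0 to 3 over those fits. It was 0 without N mouse 2, Y mouse 2 or Y mouse 3, and 1 without N mouse 3, N mouse 4 or E mouse 3. Flg lost its call in 3 of the 19 fits, Hrnr in 11 and Tchh in 13, while each kept its direction. With only N mice 1 to 3 as controls, Flg alone was called.

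Scaling moved all genes together. The TPM of the median gene was 0.33 higher on the log2 scale in EY than in N, and 0.01 higher after median-of-ratios scaling. Under that scaling the same 7 genes fell in EY, with log2 differences from -2.82 for Ivl to -5.96 for Hrnr, and Krtdap was at -0.98. The share of all calls in EY against N that were lower was 31.2% of 4157 on TPM and 56.2% of 3512 after that scaling. For Y against N it was 24.2% of 1042 and 42.8% of 916.

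The 7 genes that fell in EY followed each other across the 19 mice, with Pearson r from 0.77 to 0.96 over their 21 pairs (median 0.89). This is a description, since the mice fall into genotype groups. With the group means removed the same pairs ranged from -0.21 to 0.75 (median 0.30). Tgm1 had r from 0.01 to 0.17 with the 7 genes, and Krtdap from 0.64 to 0.82. After removal of the group means Tgm1 ranged from 0.03 to 0.44 (median 0.27) and Krtdap from 0.03 to 0.65 (median 0.32). These medians are near that of the 7 genes, which were picked by their fall in EY. Within EY, mouse 4 was lowest for 5 of the 9 genes (Flg, Hrnr, Lor, Ivl and Krtdap) and mouse 3 highest for 5 (Hrnr, Rptn, Lor, Krtdap and Tgm1). Within Y, mouse 1 was highest for 7 of the 9.

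Among 15584 other genes with a mean of at least 1 TPM, the 5 most like the mean profile of the 9 genes over the 19 mice were Pla2g2f (r = 0.99), Dsc1 (r = 0.98), Perm1 (r = 0.98), Dsg1a (r = 0.98) and Prxl2b (r = 0.98). Dsc1 and Dsg1a encode desmosomal cadherins of the upper epidermal layers. Dsc1 averaged 407 TPM in N and 362 in E, 139 with YAP1S127A alone and 40.6 with both transgenes. The nearest gene to each was Prom2 for Flg (r = 0.96), Perm1 for Hrnr (0.98), Plekhn1 for Rptn (0.98), Bicdl2 for Tchh (0.96), Cdsn for Lor (0.98), Gm11567 for Ivl (0.93), Lipk for Krtdap (0.89), Gm49067 for Tgm1 (0.80) and Plcd1 for Tgm3 (0.96). Cdsn encodes corneodesmosin, an adhesion protein of cornified cells.

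Other genes of the same pathway were read as lists, and each count is against N. The shares of all genes to read these counts beside are 5.71% lower and 12.6% higher in EY, 1.11% lower and 3.47% higher in Y, and 0.044% lower and 1.16% higher in E. Both other fused-type S100 genes fell in EY, Crnn (cornulin) with a log2 difference of -4.51 and Tchhl1 with -3.19, and Crnn fell by 2.18 in Y. Of 7 other transglutaminase family genes, 3 fell in EY (5.71% of all genes) and none rose: Tgm7 was at -3.79, Tgm6 at -2.50 and Tgm5 at -1.41. Per exon length their means in N were 58.8, 10.8 and 67.2 TPM, below Tgm1 and Tgm3. Of 5 genes that activate transglutaminases or inhibit their activators, 2 fell in EY, both inhibitors of cathepsins: Cst6 at -2.33 and Csta1 at -1.74. In Y, Cst6 fell by 1.10, and Ctsl, the cathepsin that can process Tgm3, rose by 1.26. Ctsl in EY was 0.88 higher (adjusted p = 5.2e-05), short of the limit on size. Under median-of-ratios scaling that difference was 0.50 (adjusted p = 0.030).

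Of 11 other cornified envelope proteins, 2 fell in EY (5.71% of all genes) and none rose (12.6%). Kprp, a proline-rich keratinocyte protein, fell by 3.58, and Prr9, another proline-rich protein, fell by 4.21 in EY and fell by 1.95 in Y. Envoplakin and periplakin, the plakins of the early envelope, did not pass, with Evpl at -0.56 and Ppl at -0.39 in EY. Cnfn (cornifelin) was at 0.00 and Crct1 at -0.48. The median over this list was -0.48 in EY, against -2.95 for the 9 genes and 0.33 for all genes tested. Under median-of-ratios scaling the list's median was -0.86, with Evpl at -0.94, Ppl at -0.77 and Cnfn at -0.38, and the same 2 of its genes passed.

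Of 13 genes of filaggrin processing, 6 fell in EY (5.71% of all genes) and 1 rose (12.6%), and under median-of-ratios scaling 7 fell, with Prss8 added. Klk5 fell by 2.81 and Klk7 fell by 1.79, both kallikrein proteases of desquamation. Padi1, a peptidylarginine deiminase, fell by 1.95, and Asprv1, the retroviral-like protease that cuts profilaggrin, fell by 1.71. Pcsk6 and Blmh, the latter a late-acting aminopeptidase, were the others to fall. Casp14, the caspase of cornifying cells that degrades filaggrin, went the other way: its mean of 13.2 TPM in N compared with 30.5 in E, 71.8 for the Y mice and 64.6 for the EY mice. On the log2 scale it rose by 1.19 with E6-E7, by 2.40 with YAP1S127A and by 2.28 with both, and the call with E6-E7 alone was lost under median-of-ratios scaling (1.08, adjusted p = 0.011).

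Of 7 suprabasal keratins, 6 fell in EY (5.71% of all genes) and none rose, with log2 differences of -5.73 for Krt10, -5.49 for Krt76, -4.39 for Krt24 and -3.61 for Krt1. In Y, 3 fell (1.11% of all genes): Krt10, Krt76 and Krt24. Of 8 basal keratinocyte markers, 1 rose in EY, Krt14 by 1.43, and 1 fell, Krt15 at -1.27, counts near the shares over all genes (12.6% higher and 5.71% lower). Under median-of-ratios scaling 2 fell, with Col17a1 added. The median over the basal list was 0.28 in EY, against 0.33 for all genes tested. Its summed TPM, most of it Krt14 and Krt5, ran from 9264 to 14627 in N, 17108 to 31010 in Y and 16020 to 32195 in EY. The sum of the suprabasal keratins ran from 67672 to 129146 in N, 41368 to 74121 in Y and 26234 to 38751 in EY. From N to EY the suprabasal sum fell as the 7 genes did, whereas the basal sum rose. The basal sums of Y and EY overlapped. The part of a change in layers in the result was not tested.

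**Figure D4:**
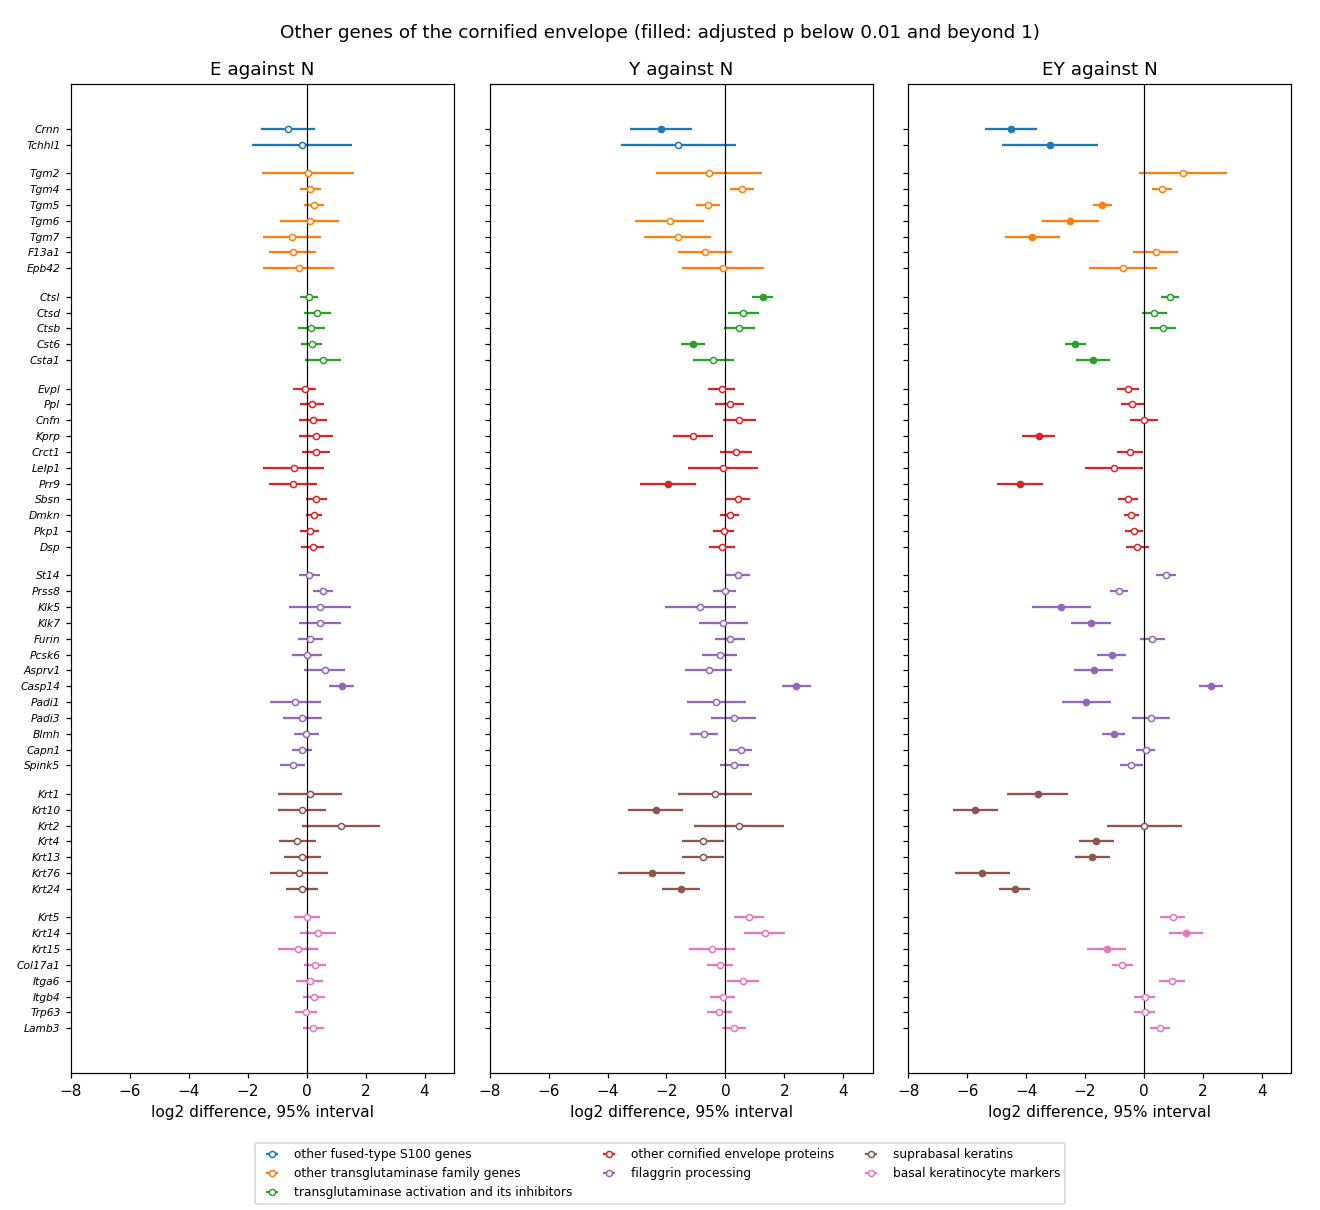
Log2 differences with 95% intervals in E, Y and EY against N for 53 genes in 7 lists, filled where the threshold is passed. In EY most suprabasal keratins lie left of -1 while 9 of the 11 other cornified envelope proteins lie between -1.03 and 0.00 on the TPM scale, and Casp14 lies right of 1 in all 3 panels.

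Markers of other cells moved in some mice or in a whole group. The 8 skeletal muscle markers summed to 21.9 to 285 TPM in N and 28.7 to 162 in E, with sums of 30.8 to 205 among Y mice and 67.1 to 1471 among EY mice, and 1 of 8 was called higher in EY (Tnni2), a share like that of all genes (12.6%) and lost under median-of-ratios scaling (adjusted p = 0.018). The highest sum was in EY mouse 3, and without that mouse all 7 genes still fell in EY. The 6 fibroblast markers summed to 61.5 to 293 TPM in N, 23.8 to 44.1 in Y and 24.2 to 153 in EY. Every Y mouse thus lay below every N mouse in this sum. In EY 1 of 6, Dcn, fell. In Y against N the median log2 difference of this list was -1.585. Dcn was at -1.86 there (limma, adjusted p = 0.021) and no gene of the list was called. The 7 neutrophil markers summed to 1.42 to 16.8 TPM in N, 4.66 to 26.2 in Y and 1.81 to 120.4 in EY. Among these Ly6g was at 0 in all N, E and Y mice and in EY mouse 6, and rose in EY to a mean of 0.97 TPM. It was the only 1 of the 7 called in EY, a share like that of all genes counted higher (12.6%). The part of these cells in the result was not tested.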

How the data were processed

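Bulk RNAseq of tongue epithelium from 19 mice was used. Per the labels and the study's methods, the authors aligned reads with STAR 2.7.9 to GRCm39, handled alignments with SAMtools 1.7, counted them with HTSeq 0.13.5 and tested with DESeq2 1.34.0. The deposited values are TPM by gene symbol, 1 column per mouse. Whole reads came back from the TPM steps for 99.992% of 24680 genes above 0 (within 0.001 reads). The gene length implied by the authors' TPM lay within 1% of the genomic span, introns included, for 99.2% of 11109 genes with at least 1000 reads, and within 1% of the exon length for 0.9% (GENCODE M21). Intron-rich genes are thus understated against others, so levels between genes were recomputed per exon length.

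Since TPM are not counts, limma 3.58.1 (R 4.3.3; empirical Bayes with a trend, Benjamini-Hochberg adjustment over 22745 genes) was run on log2(TPM + 0.1), with 1 mean per genotype and 7 comparisons. Fold changes on this scale understate low genes. Alternatives were other pseudocounts, filters, scalings and controls, voom on recovered reads, a replicate block and leaving out each mouse. The genes and lists were chosen with earlier results of these data known. All 10 genes were named, list genes were named from their largest changes in EY or by their role, and likeness was the Pearson r of log2(TPM + 0.1).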

Additional observations from a re-analysis of the deposited data

Results flagged for a closer look

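The difference that E6-E7 and YAP1S127A made together departed from the sum of their separate differences for 2 genes, by limma's interaction term at an adjusted p below 0.05, against 0.536% of all genes lower at that threshold. For Rptn the interaction EY - E - Y + N was -2.38 on the log2 scale (SE 0.48, adjusted p = 0.028). For Lor it was -2.91 (SE 0.64, adjusted p = 0.043). Neither reached the adjusted p of 0.01 used for calls. Over the alternatives the adjusted p ran from 0.0016 to 0.081 for Rptn and from 0.0061 to 0.15 for Lor. Of the 19 limma fits without 1 mouse, 6 for Rptn and 14 for Lor had an adjusted p not below 0.05. No mouse of N, E or EY stood apart from its group for any of the 9 genes by Dixon's test over 27 groups of values.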

How the results depend on the processing

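The count of 7 genes in EY against N and in EY against E was reached under every setting tried, apart from 8 in EY against N with no limit on the fold change, which adds Krtdap, and E against N gave 0 throughout. Of Y against N (3 genes), 1 was left with only the 3 N mice that carried Krt14-CreERT and LSL-rtTA, 1 with only the groups compared, 2 with quantile normalization, and 0 to 3 when a mouse was left out, while voom and an adjusted p below 0.05 each gave 4, with Rptn added. Of EY against Y (3 genes), 0 were left with only the groups compared and 1 to 3 when a mouse was left out, while an adjusted p below 0.05 gave 4, with Ivl added. Y against E (1 gene) gave 3 with voom, 2 at an adjusted p below 0.05, and 0 to 1 when a mouse was left out. The interaction (0 genes) gave 2 with voom, 2 at an adjusted p below 0.05, and 0 to 1 when a mouse was left out (Rptn without EY mouse 3). The cause of these shifts was not tested beyond the fewer mice or the other threshold. Same-numbered mice did not deviate together (correlation -0.04 to 0.08 over 24 pairs, and 6 of 19 mice were nearest a mouse of their own number), so numbers were not taken as pairs. With the replicate block, Y against N gave 2 genes and the other counts did not change. TPM per exon length was tried after seeing the data and changed no count.

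Signs changed only where the difference was close to 0 and no call was made. Tgm1 in EY against N was -0.25 with median-of-ratios scaling, -0.13 with quantile normalization and -0.044 with voom. Krtdap in Y against N was -0.18, -0.031 and -0.084 under the same settings, -0.048 with the replicate block, -0.033 with exon-length TPM and -0.065 to 0.13 when a mouse was left out. Tgm1 in Y against E was -0.069, -0.13 and -0.055 under those 3 settings, -0.01 with exon-length TPM and -0.17 to 0.27 when a mouse was left out. In E against N, with only those 3 N mice, Lor was -0.081 and Ivl 0.11, and when a mouse was left out Lor ran from -0.079 to 0.33 and Krtdap from -0.15 to 0.039. Depth limits Flg2 (0 to 3 reads) and Ivl in EY (9 to 34 reads).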

Other observations

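On the deposited scale Tgm3 averaged 289 TPM and Tgm1 145 TPM in N, whereas per exon length they averaged 1209 and 289.9. The genomic span of Tgm3 is 9.20 times its exon length, that of Tgm1 4.40 times, that of Krtdap 4.72 times and that of Flg 1.07 times. The order of genes in the deposited table therefore depends on intron length, and Rptn, at 12493 TPM against 3431 for Krtdap as deposited, is close to Krtdap per exon length (7888 and 7362).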
